A study of Mus musculus with 3 samples.

Results

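Innate lymphoid cell (ILC) progenitor-like cells were read from the lungs of GFI1B-GFP reporter mice, as CD3-negative cells that carried transcripts of the IL-18 receptor chain Il18r1, of the transcription factor Tcf7 and of 4 further genes found in early ILC. A member had 0 unique molecular identifiers (UMIs, single captured transcripts) of Cd3e and Cd3d together, at least 1 UMI of Il18r1, at least 1 of Tcf7 and a summed 2 or more of Tox2, Sox4, Cacna1e and Batf3. There were 94 such cells among 5164 kept barcodes. Of these, 69 lay in the IL-18R+ pool and 25 in a library whose label reads IL-18R- CD103- GFP-, called the other library from here on. The IL-18R- ST2+ library held 0 members among 1558 CD3-negative cells, which allows a share of up to 0.193%. Members were chosen by the measured UMI counts of Il18r1, Tcf7, Tox2, Sox4, Cacna1e, Batf3, Cd3e and Cd3d, so the values of these genes are given only as a description.

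All cells came from perfused, enzyme-digested lungs and had been gated as live CD45+, lineage-negative, CD90.2+ and IL-7R+. The IL-18R+ pool joins a CD103+ GFP- gate with a CD103- GFP+ gate, both IL-18R+. No label tells which gate a barcode came from, so the reporter state of a member is not known. All 3 libraries carry the GFI1B reporter allele, and sources used here do not give the age, sex or number of the mice. Each group is 1 library, so no difference has a replicate check and no test was run. Every interval is a 95% interval of counting error alone.

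Progenitors of ILC are rare lymphoid cells that have left the B cell and T cell paths but have not yet settled on group 1, 2 or 3 ILC fate. In mouse bone marrow they are known for the transcription factors TCF-1 (encoded by Tcf7), TOX and PLZF (encoded by Zbtb16), for the checkpoint receptor PD-1 (encoded by Pdcd1) and for the stem cell factor receptor Kit. Mature ILC1 rely on T-bet and ILC2 on GATA3, while NK cells also use EOMES. GFI1B is a zinc finger repressor that works with the histone demethylase KDM1A and the corepressor RCOR1, and it had 0 UMIs in every library. Of the rule genes, Tox2 and Sox4 encode HMG-box transcription factors, Batf3 encodes a leucine zipper factor best known in dendritic cells, and Cacna1e encodes a voltage-gated calcium channel chain.

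The filter kept 1659 of 1688 barcodes of the IL-18R+ pool, 1883 of 1903 of the other library and 1622 of 1760 of the IL-18R- ST2+ library, with median depths of 4568 to 4932 UMIs per cell. The 2 libraries with members shared 1 barcode sequence, and it was not a member. The IL-18R- label of the other library names a sort gate, which is not a measure of transcripts. There 115 of 225 CD3-negative cells carried transcripts of both Il18r1 and Tcf7, against 183 of 425 in the pool. Members made up 16.2% of CD3-negative cells in the pool (interval 12.9 to 20.1%) and 11.1% in the other library (7.32 to 15.96%). After each cell was thinned to 2000 UMIs, the rule found 15 of 470 CD3-negative cells in the pool (3.19%, 1.80 to 5.21%) and 5 of 303 in the other library (1.65%, 0.538 to 3.81%). Ratios given later for the rule run on thinned cells sum the full counts of the cells so chosen. They are not matched for depth. Thinning also removes Cd3e and Cd3d UMIs, so cells with CD3 transcripts at full depth can count as CD3-negative in that setting. The CD3-negative count rose from 425 to 470 and from 225 to 303, though 19 cells under 2000 UMIs were left out of each library.

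The members were compared with 2 other classes. ILC1-like cells were CD3-negative with a summed 2 or more UMIs of Ncr1, Xcl1 and Klrb1c and under 2 of the 4-gene sum, and numbered 32 in the pool and 38 in the other library. Neighbour cells met the Il18r1 and Tcf7 part of the rule but had under 2 of the 4-gene sum and were not ILC1-like, and numbered 97 in the pool and 73 in the other library. The neighbour class was defined after the data had been seen. Pool members were the deepest class, with a median of 9252 UMIs (3863 to 25951) and 2910 genes, against 5832 UMIs and 2204 genes in ILC1-like cells and 5406 UMIs and 1954 genes in neighbour cells. Members of the other library had a median of 5449 UMIs, against 5024 in ILC1-like cells. Among pool members 10 of 69 also met the ILC1 gene sum, as did 5 of 25 in the other library.

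The 4-gene sum spread far above the threshold in the pool and stayed near it in the other library. Pool members had a median sum of 6 UMIs and a highest of 27, while members of the other library had a median of 2 and a highest of 15. In the pool 89 Il18r1+ Tcf7+ cells had a sum of 0, 25 had 1, 9 had 2 and 11 had 3. Outside the pool these counts were 76, 14, 13 and 5. Just inside the threshold, at a sum of 2, 3 of 9 pool cells carried Zbtb16, 8 carried Tox, 6 carried Pdcd1 and 7 carried Kit. Just outside it, at a sum of 1, 9 of 25 pool cells carried Zbtb16, 11 Tox, 9 Pdcd1 and 16 Kit. In the other library 0 of 13 cells at a sum of 2 carried Zbtb16, and 1 of 14 at a sum of 1.

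**Figure D1:**
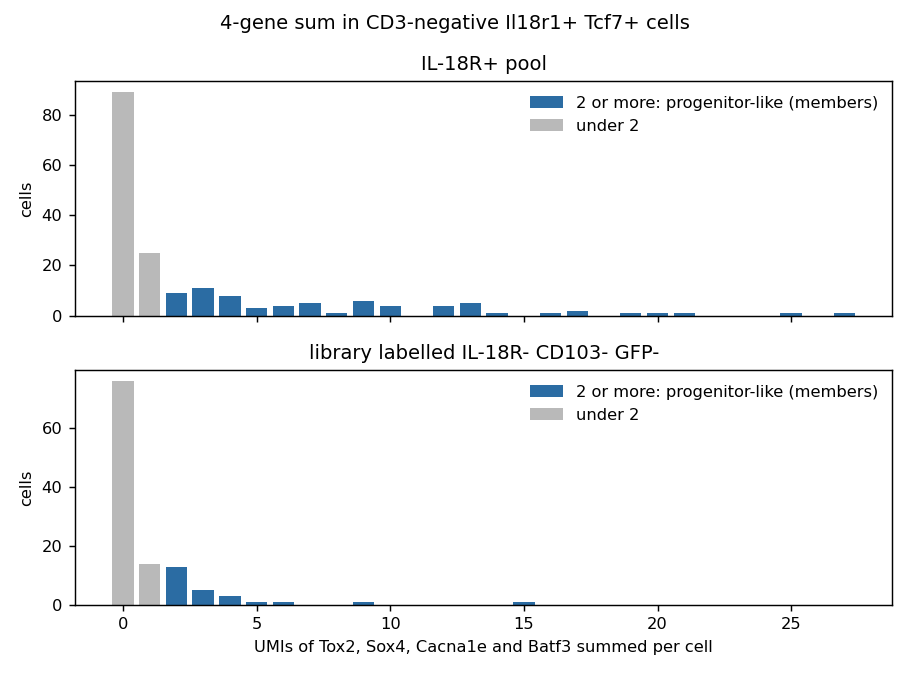
Histogram of the summed UMIs of Tox2, Sox4, Cacna1e and Batf3 per cell (horizontal axis) against the number of CD3-negative Il18r1+ Tcf7+ cells (vertical axis), in the IL-18R+ pool (upper panel) and the other library (lower panel). Blue bars are members; the pool has a tail of members up to 27 UMIs, while most members of the other library sit at 2 to 4.

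Different genes carried cells over the threshold in the 2 libraries. In the pool Sox4 was detected in 56 of 69 members, Batf3 in 40, Tox2 in 34 and Cacna1e in 33. In the other library Batf3 was detected in 19 of 25 members, Sox4 in 8, Tox2 in 7 and Cacna1e in 0. A single gene of the 4 brought in 16 pool members, while 31 had 3 or 4 of the genes. Of the 25 members outside the pool 17 rested on a single gene, and 12 of those on Batf3 alone. Without Batf3 in the sum, an alternative chosen after seeing the data, 59 pool members and 8 members of the other library remain.

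The name was checked against its 6 markers. Of the 2 that the rule did not use, Zbtb16 was present in 42 of 69 pool members (60.9%, 48.4 to 72.4%) and Il17rb, the IL-25 receptor chain, in 19. Outside the pool Zbtb16 was present in 1 of 25 members (4%, 0.101 to 20.4%) and Il17rb in 2. The progenitor name therefore rests on the pool, the 25 cells of the other library are called its members by the rule alone, and results are given by library.

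Markers of cell types outside the ILC and T cell family were low but not all at 0 in the pool members. The 8 myeloid genes summed to 5.73 UPM (UMIs per 1000000 UMIs of the class) with 4 genes at 0, against 20071 UPM in the 116 B cell, myeloid and stromal cells of the same library, a background class defined after seeing the data. The 7 stromal, endothelial and epithelial genes summed to 91.6 UPM in members, with UMIs in 31 of 69 cells, and 7740 UPM in that class. The 6 B cell genes summed to 143 UPM in members with UMIs in 41 of 69 cells, 132 UPM in ILC1-like cells, 53.2 in neighbour cells and 1251 in the background class. All of that in members was Ighm and Cd79b, while the defining B cell genes Cd79a, Ms4a1, Ebf1 and Pax5 had 0 UMIs. Ighm, the heavy chain constant segment of IgM, was called higher in members than in neighbour cells, at 118.9 and 32.2 UPM, and had 127 UPM in ILC1-like cells. T cell transcripts were not near 0: the 19-gene T cell list summed to 2855 UPM in pool members, 1573 in ILC1-like cells, 2074 in neighbour cells and 8341 in T cells. Most of that in members was Trbc1 and Trbc2, constant segments of the T cell receptor beta locus that are nearly identical in sequence and are therefore uncertain as to which is which. Their part in the results was not tested.

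Several genes known from ILC progenitors were higher in pool members than in ILC1-like cells. A gene was measured at 50 UPM or more in the higher class, and called at a ratio of 2 or more with a UMI in at least 10% of that class. Of 3631 measured genes 244 were called higher in members (6.72%) and 266 lower (7.33%), or 5.4% and 6.83% where the counting interval also had to leave out 1, a rule chosen after seeing the data. A gene near 0 in a class is measured only through the class where it is high, which fixes its direction, so counts over a list are descriptions. Of the 16 measured ILC progenitor genes outside the rule, 6 were called higher and 0 lower, with a median log2 ratio of 0.45 against 0.04 over all genes. The 6 were Zbtb16, Tox, Pdcd1, Kit, Lef1 and Il17rb.

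Zbtb16 had 169 UPM in pool members (140 to 202), 45.4 in ILC1-like cells and 35.5 in neighbour cells. That is 3.73-fold higher than in ILC1-like cells (1.96 to 7.97) and 4.77-fold higher than in neighbour cells (3.01 to 7.89). Per cell it had 0 to 11 UMIs with a median of 1, so its ranges overlap between classes. It was seen in 42 of 69 members, against 8 of 32 ILC1-like and 18 of 97 neighbour cells, and in 7 of 116 B cell, myeloid and stromal cells at a median of 3434 UMIs. After thinning to 2000 UMIs the share was 29.0% in members, 15.6% in ILC1-like cells and 4.12% in neighbour cells.

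Pdcd1 had 388 UPM in pool members (343 to 437), 49.9 in ILC1-like cells and 108 in neighbour cells. Members were 7.78-fold above ILC1-like cells (4.28 to 15.8) and 3.59-fold above neighbour cells (2.74 to 4.77). It was detected in 60 of 69 members, against 7 of 32 ILC1-like and 22 of 97 neighbour cells. Thinned shares were 49.3%, 3.13% and 10.3% in that order of classes.

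Tox, an HMG-box factor needed for ILC progenitors in mice, had 233 UPM in members, 95.2 in ILC1-like cells and 75.7 in neighbour cells. Its ratios were 2.45 over ILC1-like cells (1.55 to 4.07) and 3.08 over neighbour cells (2.22 to 4.36). Kit had 319 UPM in members, 159 in ILC1-like cells and 121 in neighbour cells, with ratios of 2.01 (1.40 to 2.96) and 2.64 (2.03 to 3.48). The B cell, myeloid and stromal cells also carried Kit, at 202 UPM. The Kit call over ILC1-like cells sits at the threshold: its log2 ratio was 0.96 with a sum of 3 or more, 0.93 without Batf3 and 0.95 with Cd3g, Trdc and Trac also at 0, all just under a 2-fold difference.

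Lef1, a partner of TCF-1 in Wnt signalling, had 60.1 UPM in members and 18.1 in ILC1-like cells, a ratio of 3.32 (1.20 to 12.7). Myb, a factor of early blood and lymphoid cells, had 70.2 UPM in members, 18.1 in ILC1-like cells and 12.9 in neighbour cells, with ratios of 3.87 (1.42 to 14.8) and 5.44 (2.56 to 13.3). Il17rb had 53.0 UPM in members and 13.6 in ILC1-like cells, a ratio of 3.89 (1.23 to 19.7) that rests on 37 and 3 UMIs. Neighbour cells stood higher for Il17rb, at 98.3 UPM, so that members were 1.86-fold lower (1.21 to 2.87), which was not called. Integrin alpha 4 (Itga4), Arg1 and Ikzf2 separated members only from neighbour cells by the size rule, with ratios of 2.80, 2.73 and 2.52, and had 216, 176 and 491 UPM in members, against 172, 118 and 413 in ILC1-like cells. Against neighbour cells, 7 of 16 measured progenitor genes outside the rule were higher and 6 neither, while Itgb7, Cxcr6 and Maf were lower. Their median log2 ratio was 0.20, close to 0.12 over all genes, of which 8% were called higher and 4.27% lower.

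**Figure D2:**
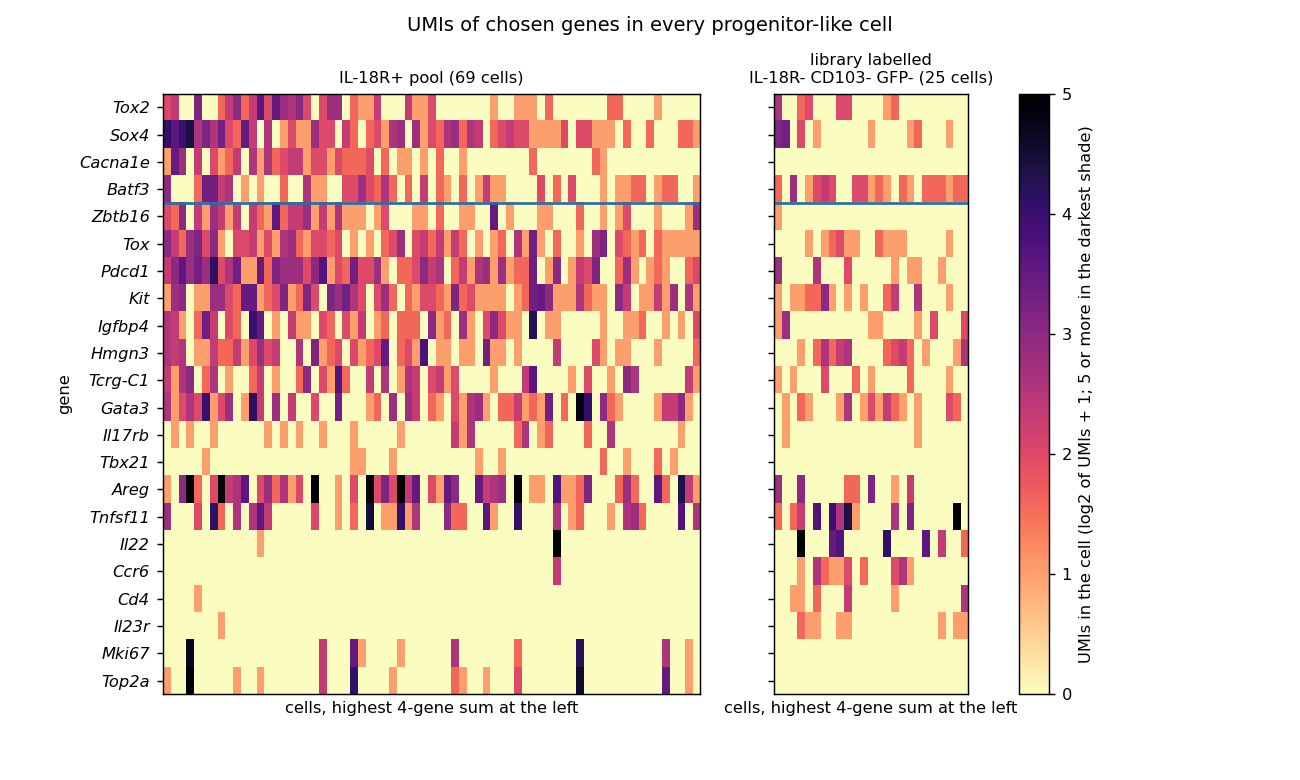
UMIs of chosen genes (rows) in each progenitor-like cell (columns, highest 4-gene sum at the left), on a log2 of UMIs + 1 scale, for the 69 members of the IL-18R+ pool (left) and the 25 of the other library (right). Genes above the blue line were used by the rule; Zbtb16, Pdcd1 and Hmgn3 fill more of the left side of the pool panel, and Zbtb16 and Cacna1e are nearly empty on the right panel.

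Master regulators of the mature lineages were mixed among pool members. Of the 8 measured lineage factors, Gata3 was called higher than in ILC1-like cells, Tbx21 and Eomes lower and 5 neither, with a median log2 ratio of -0.15. Gata3 had 311 UPM in members, 150 in ILC1-like cells and 380.3 in neighbour cells. Its ratio over ILC1-like cells was 2.08 (1.44 to 3.09), and its log2 ratio was 0.54 when the rule ran on thinned cells, under the size rule. Tbx21, which encodes T-bet, had 17.2 UPM in members and 90.7 in ILC1-like cells, 5.28-fold lower (2.46 to 11.8). Eomes had 31.5 UPM in members and 72.6 in ILC1-like cells, 2.30-fold lower (1.13 to 4.59), and 0 UMIs in neighbour cells. The Eomes call ended when the rule ran on thinned cells (log2 ratio -0.18) and with a 4-gene sum of 1 or more (-0.29).

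Rora, a factor shared by ILC2 and ILC3, had 845 UPM in members, 775 in ILC1-like cells and 1357 in neighbour cells and was not called. Id2, which marks commitment to ILC, had 571, 467 and 711 UPM in the same order and was not called either. Bcl11b, a factor of T cells and ILC2, had 30.1 UPM in members and 216 in neighbour cells, which is 7.18-fold lower (4.51 to 12). It was seen in 13 of 69 members and 66 of 97 neighbour cells, against 1 of 32 ILC1-like cells. Among pool members 39 of 69 carried Gata3 without Tbx21, 7 carried both and 20 carried neither.

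Receptors for cytokines were mostly lower in pool members than in ILC1-like cells where they differed. Of 10 measured receptor genes outside the rule, Il17rb was higher, Il2ra, Il2rb, Il18rap and Ifngr1 were lower and 5 were neither. Their median log2 ratio was -0.59 against 0.04 over all genes, of which 7.33% were called lower. Il18rap, the signalling partner of Il18r1, had 35.8 UPM in members and 249 in ILC1-like cells, 6.97-fold lower (4.27 to 11.7). Il18r1 itself, a rule gene in members only, had 705 UPM in members and 707 in ILC1-like cells. Il2rb, the shared IL-2 and IL-15 receptor chain, had 390 UPM in members and 993 in ILC1-like cells, 2.55-fold lower (2.12 to 3.06). Il2ra had 24.3 and 54.4 UPM, 2.24-fold lower with an interval that includes no difference (0.974 to 4.97) and a log2 ratio of -0.60 as a mean over cells. Il7r, used in the sort, had 1177 UPM in members, 789 in ILC1-like cells and 1610 in neighbour cells.

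Cytotoxic and type 1 effector genes were lower in pool members, and some of them were at or near 0. All 14 measured ILC1 and NK genes outside the comparator genes were called lower than in ILC1-like cells, with a median log2 ratio of -1.93; the 3 comparator genes chose the ILC1-like cells, so this direction is in part fixed by that choice. Gzma, a granzyme, had 0 UMIs in members and 1741 UPM in ILC1-like cells, at least 405-fold lower against a floor of 3 UMIs over the class. Its UMIs came from 8 of 32 ILC1-like cells. Prf1, which encodes perforin, had 4.30 UPM in members and 177 in ILC1-like cells, 41.2-fold lower (13.1 to 208). Ifng had 0 UMIs in members and 63.5 UPM in ILC1-like cells, at least 14.8-fold lower. The chemokine Ccl5 had 195 UPM in members and 2480 UPM in ILC1-like cells, 12.7-fold lower (10.5 to 15.5).

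Of the 14 measured effector genes, Areg and Tnfsf11 were higher in pool members, 8 were lower and 4 neither. Their median log2 ratio was -2.76, and 6.72% of all measured genes were called higher and 7.33% lower. Areg, a growth factor of tissue repair, had 740.3 UPM in members, 304 in ILC1-like cells and 619 in neighbour cells. Its ratio over ILC1-like cells was 2.44 (1.89 to 3.19), and single members ranged over 0 to 79 UMIs with a median of 2. Tnfsf11, which encodes RANKL, a signal of lymphoid tissue organisation, had 261 UPM in members, 22.7 in ILC1-like cells and 95.1 in neighbour cells. Its ratios were 11.5 (4.84 to 35.8) and 2.74 (2.03 to 3.74), and it was seen in 32 of 69 members, against 3 of 32 ILC1-like and 14 of 97 neighbour cells. Over ILC1-like cells the log2 ratio of Tnfsf11 was 3.52, and 1.55 when the rule ran on thinned cells. The type 2 cytokine Il5 had 0 UMIs in members, and Il13 had 12.9 UPM in members (2 cells) and 75.7 UPM in neighbour cells (16 cells), 5.88-fold lower (2.85 to 13.6). Il1rl1, which encodes ST2, was present in 1 of 69 members.

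Of 16 listed ILC2 genes 5 were measured, and all 5 were called higher in pool members than in ILC1-like cells. Their median log2 ratio was 2.10, and over all measured genes 6.72% were called higher. The 5 were Icos, Calca, Ramp3, Cd81 and Furin, of which the last is a protease used well beyond ILC2. Il1rl1, Klrg1, Ptgdr2 and Nmur1 were among the genes not measured. Against neighbour cells 6 ILC2 genes were measured, with Cd81 higher, Icos, Ramp3 and Il9r lower and 2 neither. The median log2 ratio there was -0.67. Icos, a costimulatory receptor, had 239 UPM in members and 81.6 in ILC1-like cells, a ratio of 2.93 (1.80 to 5.06). Neighbour cells had 767 UPM of Icos, so that members were 3.21-fold lower than these (2.68 to 3.85). Calca, which encodes the neuropeptide CGRP, had 223 UPM in members and 40.8 in ILC1-like cells, 5.47-fold higher (2.81 to 12.2), from 17 of 69 members.

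**Figure D3:**
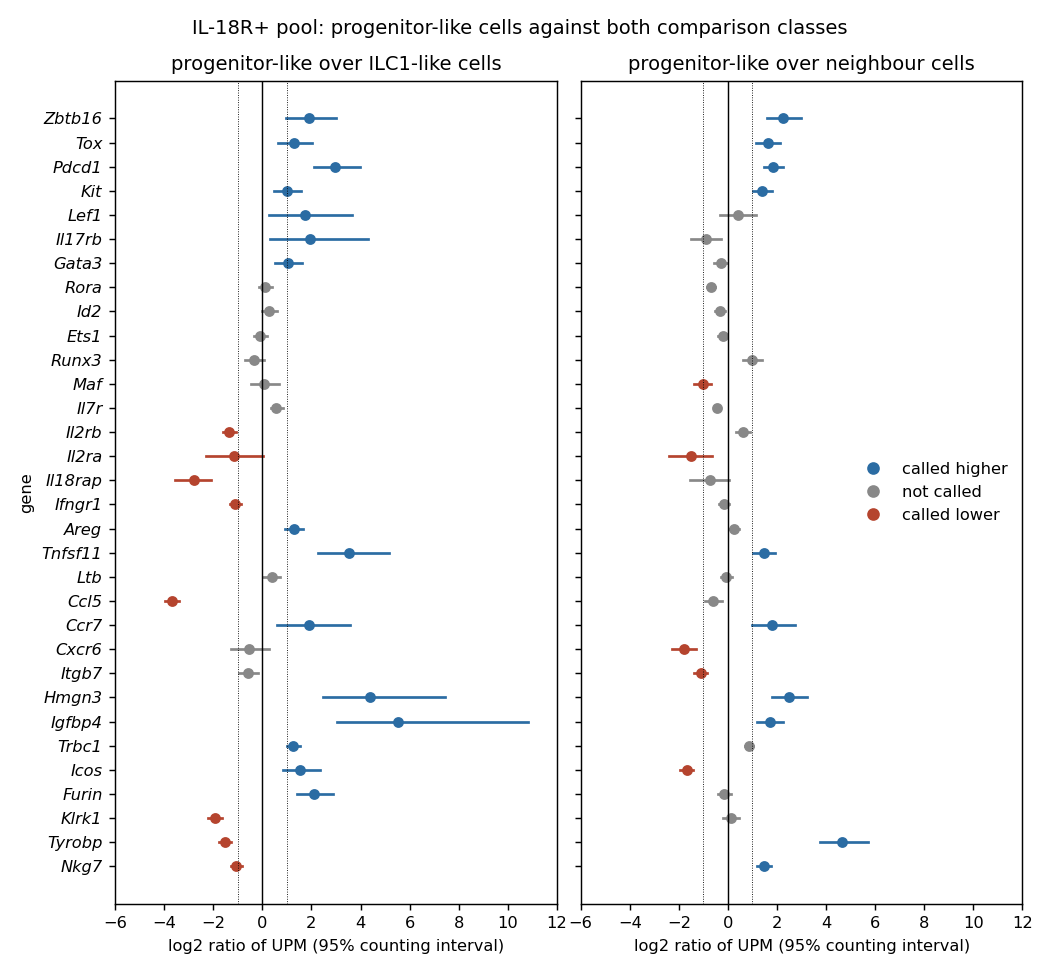
Log2 ratio of UPM (horizontal axis, points with 95% counting intervals) for chosen genes (rows) in IL-18R+ pool members over ILC1-like cells (left) and over neighbour cells (right); dotted lines mark a ratio of 2 in each direction, and the Igfbp4 and Hmgn3 intervals are wide because ILC1-like cells had 1 and 2 UMIs. Zbtb16, Tox, Pdcd1, Kit and Tnfsf11 lie above the 2-fold line in both panels, while Tyrobp, Nkg7 and Icos change sides.

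Outside the lists, genes with large ratios over ILC1-like cells included Igfbp4, Tppp3, Hmgn3 and Igfbp7. Igfbp4, a secreted binding protein of insulin-like growth factors, had 209 UPM in members, 4.54 in ILC1-like cells and 64.5 in neighbour cells. Its ratios were 46.1 (8.15 to 1833, on 1 UMI in ILC1-like cells) and 3.24 (2.27 to 4.72). The B cell, myeloid and stromal cells had 81.1 UPM of Igfbp4. Hmgn3, a nucleosome-binding protein, had 188 UPM in members, 9.07 in ILC1-like cells and 33.8 in neighbour cells, with ratios of 20.7 (5.61 to 173) and 5.54 (3.48 to 9.25). It was seen in 43 of 69 members, against 1 of 32 ILC1-like cells, 10 of 97 neighbour cells and 1 of 116 B cell, myeloid and stromal cells. Over ILC1-like cells the log2 ratios of Igfbp4 and Hmgn3 against a floor of 3 UMIs were 3.94 and 3.79. They were 2.13 and 2.02 when the rule ran on thinned cells. Igfbp7 had 188 UPM in members, 13.6 in ILC1-like cells and 0 UMIs in neighbour cells, but 394 UPM in the B cell, myeloid and stromal cells. Tppp3, a tubulin-binding protein, had 120.3 UPM in members from 11 of 69 cells and 4.54 UPM in ILC1-like cells.

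Transcripts of T cell receptor loci were present in pool members. All classes compared here were chosen with 0 UMIs of Cd3e and Cd3d, so the absence of these 2 genes is fixed by the rule. Whether some members are T cells with missed CD3 transcripts was not tested. Of 6 measured T cell genes, Trbc1 and Tcrg-C1 were called higher in pool members than in ILC1-like cells and 4 were neither. The median log2 ratio was 0.62 against 0.04 over all genes, of which 6.72% were called higher. Tcrg-C1, a constant segment of the gamma chain locus, had 182 UPM in members from 35 of 69 cells and 0 UMIs in ILC1-like cells, at least 13.4-fold higher. Neighbour cells had 29.0 UPM of it, 9 of 97 cells, a ratio of 6.27 (3.81 to 10.9). Trbc1 had 1479 UPM in members, 617 in ILC1-like cells and 815 in neighbour cells, and 0 UMIs in the 116 B cell, myeloid and stromal cells. Cd3g had 1 UMI in members and 83.8 UPM in neighbour cells, which is 58.5-fold lower (10.1 to 2355). Trac was in 9 and Trdc in 4 of 69 members. With Cd3g, Trdc and Trac also at 0, an alternative chosen after seeing the data, 56 pool members remained and Zbtb16 had a log2 ratio of 2.16 over ILC1-like cells, against 1.90 with all 69. With Trbc1 and Trbc2 also at 0, 3 of 69 pool members remained, too few to compare.

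Against neighbour cells, which share Il18r1 and Tcf7, pool members were lower for many homing and residency genes. Of 3462 measured genes 277 were higher (8%) and 148 lower (4.27%), the same counts where the interval also had to leave out 1, and 184 higher and 233 lower under TMM scaling, a shift of -0.17 on the log2 scale. Of 18 measured homing and residency genes 2 were higher, 11 lower and 5 neither, with a median log2 ratio of -1.12 against 0.12 over all genes. Itgae, which encodes CD103, had 10.0 UPM in members and 137 in neighbour cells, 13.7-fold lower (6.35 to 35.0), and was seen in 5 of 69 members and 40 of 97 neighbour cells. CD103 was part of the gate of 1 of the pooled sorts. The skin and mucosal homing receptor Ccr10 had 67.3 UPM in members and 437 in neighbour cells, 6.49-fold lower (4.75 to 9.04). Cxcr6, a receptor of tissue-resident lymphocytes, had 68.7 UPM in members and 235 in neighbour cells, 3.42-fold lower (2.46 to 4.85). With Cd3g, Trdc and Trac also at 0, 57 of 97 neighbour cells and 56 of 69 members remained. Between these, 339 genes were higher in members and 196 lower. The part of T cell transcripts in the differences from neighbour cells was not tested.

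The 2 homing genes higher than in neighbour cells were Itga4 and Ccr7. Ccr7, the receptor that guides cells to lymph nodes, had 84.5 UPM in members, 24.2 in neighbour cells and 22.7 in ILC1-like cells. Its ratios were 3.49 over neighbour cells (1.96 to 6.63) and 3.73 over ILC1-like cells (1.51 to 11.9), and it was seen in 27 of 69 members and in 19 of 116 B cell, myeloid and stromal cells. The call over ILC1-like cells ended with a sum of 3 or more (log2 ratio 0.80), without Batf3 (0.64) and with the rule run on thinned cells (0.15).

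Some NK-associated genes placed pool members between the other 2 classes. Of 7 measured ILC1 and NK genes outside the comparator genes, 5 were higher in members than in neighbour cells and 0 lower. The median log2 ratio was 1.47 against 0.12 over all genes, of which 8% were called higher. Tyrobp, the DAP12 adaptor of activating NK receptors, had 402 UPM in members, 1156 in ILC1-like cells and 16.1 in neighbour cells, 25-fold above neighbour cells (13.4 to 52.6) and 2.87-fold below ILC1-like cells (2.42 to 3.42). Nkg7, a cytotoxic granule membrane protein, had 538 UPM in members, 1125 in ILC1-like cells and 195 in neighbour cells. Nrgn, a calmodulin-binding protein, had 494, 717 and 25.8 UPM in the same order. When the rule ran on thinned cells the calls of Tyrobp and Nrgn over neighbour cells ended, with log2 ratios of 0.41 and 0.96. Neighbour cells were chosen not to be ILC1-like, and 10 members met the ILC1 gene sum, so part of the gap to neighbour cells follows from how the classes were cut.

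**Figure D4:**
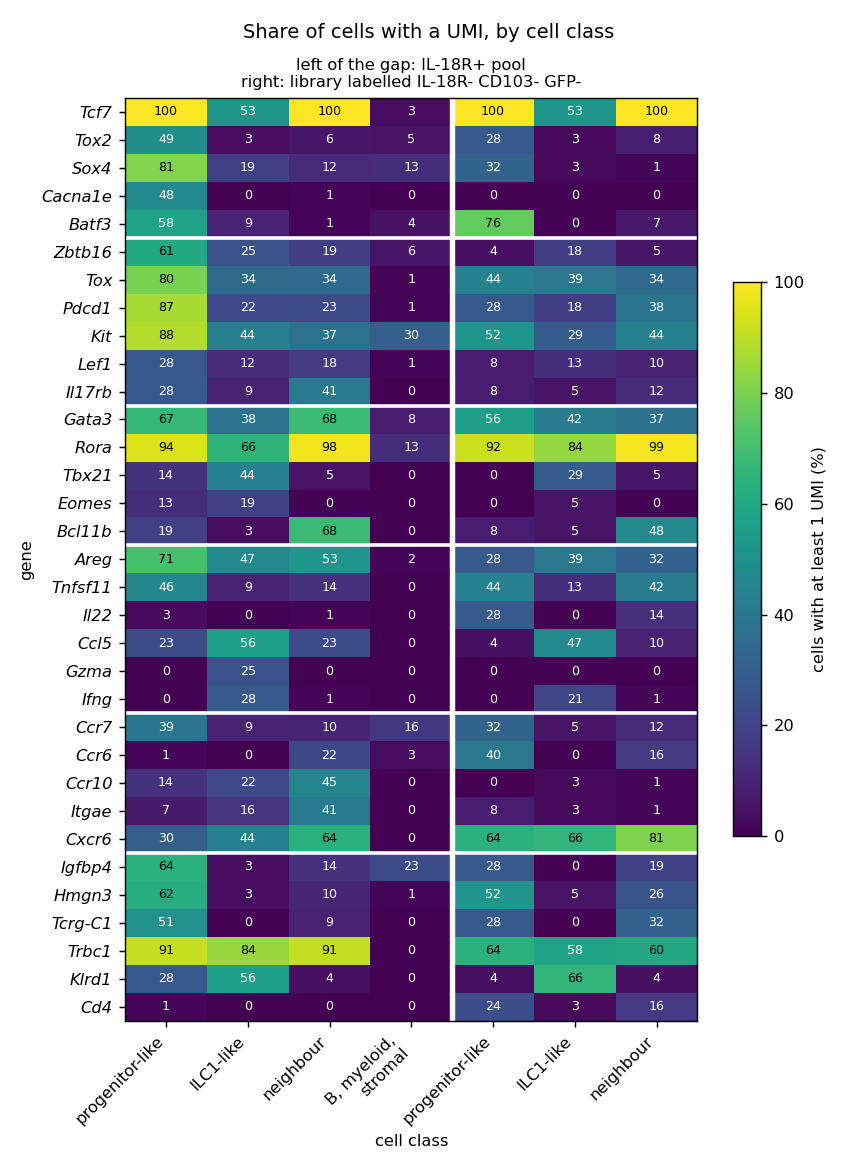
Share of cells with at least 1 UMI (colour and printed percent) for chosen genes (rows) in the cell classes (columns) of the IL-18R+ pool, left of the gap, and of the other library, right of it; shares are not thinned, and members of the pool were the deepest class. Zbtb16 is at 61% in pool members and 4% in members of the other library, and Ccr6, Il22 and Cd4 run the other way.

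Pool members can be set out by how many of the 4 rule genes they carried, which is a description along a value that chose them. Zbtb16 was seen in 4 of 16 members with 1 of the 4 genes, 11 of 22 with 2 and 27 of 31 with 3 or 4, at 32.7, 168 and 235 UPM. Hmgn3 was seen in 2, 15 and 26 of these members. Igfbp4 had 65.5, 150.3 and 319 UPM and Pdcd1 190, 358 and 504 UPM in the same order. Gata3 ran the other way, at 504, 318 and 213 UPM, as did Il17rb at 85.1, 70.7 and 25.04 UPM. Areg stayed level at 746, 738 and 739 UPM. Median depth was 7202, 9739 and 9257 UMIs in these 3 sets, and its part in the shares was not tested. Zbtb16, Tox, Pdcd1 and Kit were all present in 32 of 69 members.

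Cycling genes were found in a minority of pool members. Counting 2 or more of Mki67, Top2a, Birc5, Cdk1, Ccnb2 and Ccna2, 9 of 69 pool members (13.0%), 2 of 32 ILC1-like cells and 0 of 25 members of the other library passed. Mki67, a marker of dividing cells, had 103 UPM in pool members and 95.2 in ILC1-like cells, and 10 of 69 members carried it. Of 7 measured cycling genes 0 were called higher or lower than in ILC1-like cells. A UMI of a cycling gene can come from free RNA, and depth differed, so the counts describe these cells at their own depth.

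Members of the other library carried another set of genes. In comparison with ILC1-like cells of their own library 366 of 3595 measured genes were higher (10.2%) and 396 lower (11%), or 6.06% and 5.23% where the interval also had to leave out 1. Of 13 measured progenitor genes only Kit, Pdcd1 and Itga4 were called higher, with a median log2 ratio of 0.03. Kit had 204 UPM in members and 78.9 in ILC1-like cells, a ratio of 2.59 (1.36 to 5.11). Pdcd1 had 127 and 59.2 UPM, a ratio of 2.14 with an interval that includes no difference (0.977 to 4.88). Tox had 106 and 104 UPM, a ratio of 1.02.

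Several ILC3 genes were among those higher. Of 7 measured ILC3 genes 5 were higher and 0 lower than in ILC1-like cells of that library, with a median log2 ratio of 2.10 against -0.03 over all genes. Neighbour cells there carried the ILC3 list too, at a sum of 1147 UPM, against 1579 in members and 611 in ILC1-like cells. In the pool all 3 classes were lower, at 382, 444 and 268 UPM in the same order. Of 16 measured immediate early and heat shock genes 8 were higher too and 0 lower, with a median log2 ratio of 1.16. That list summed to 19690 UPM in members, 13960 UPM in neighbour cells and 10640 UPM in ILC1-like cells. The part of these stress transcripts in the comparison was not tested. Of 4 measured ILC2 genes Ramp3, Cd81 and Furin were higher, with a median log2 ratio of 1.66. Il22, the hallmark cytokine of ILC3, had 684 UPM in members (7 of 25 cells) and 0 UMIs in ILC1-like cells, at least 46.2-fold higher. Ccr6, a chemokine receptor of lymphoid tissue inducer cells, had 169 UPM (10 of 25 cells) and 0 UMIs, at least 11.4-fold higher. Cd4 had 98.7 and 4.93 UPM, on 1 UMI in ILC1-like cells, and Il23r had 63.5 UPM and 0 UMIs. Tnfsf11 had 740.2 UPM in members and 49.3 in ILC1-like cells, a ratio of 15.0 (7.85 to 32.2). Any of Il22, Ccr6, Cd4 and Il23r was present in 17 of 25 members and 2 or more in 8 of them, against 4 and 1 of 69 pool members.

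Set side by side, the members of the 2 libraries differed in the progenitor genes themselves. Pool members had 438 of 3672 measured genes higher (11.9%) and 401 lower (10.9%), or 7.71% and 8.96% where the interval also had to leave out 1. Of 16 measured progenitor genes Zbtb16, Tox, Pdcd1, Il17rb and Lef1 were higher in pool members, Cxcr6 and Cd7 lower and 9 neither. Zbtb16 had 169 UPM in pool members and 7.05 in those of the other library, where 1 UMI was counted, a ratio of 24.0 (4.22 to 955). Its log2 ratio against a floor of 3 UMIs was 3, and 1.58 without Batf3 in the sum. Pdcd1 had 388 and 127 UPM, a ratio of 3.06 (1.90 to 5.24), and Tox 233 and 106 UPM, a ratio of 2.21 (1.30 to 4.03). Areg had 740.3 and 212 UPM, a ratio of 3.5 (2.42 to 5.24). The interval of the Il17rb ratio included no difference (3.76, 0.969 to 32.2).

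Of the 7 measured ILC3 genes, Batf was higher in pool members and 6 were lower. Ccr6, Il1r1, Il23r and Cd4 were measured only through members of the other library, so their direction was fixed by the minimum of 50 UPM and the count is a description. Ccr6 had 5.73 UPM in pool members, all from 1 cell, and 169 UPM in the other library, 29.5-fold lower (10.1 to 117). Il23r had 1.43 and 63.5 UPM, 44.3-fold lower (6.14 to 1942), and Cd4 1.43 and 98.7 UPM, 68.9-fold lower (10.5 to 2914), each from 1 UMI in pool members. Il22 had 166 and 684 UPM, 4.12-fold lower (3.11 to 5.44), but 115 of the 116 UMIs in pool members came from 1 cell. Gpr183, a receptor for oxysterols that guides ILC3 in mice, had 196 and 881 UPM, 4.49-fold lower (3.5 to 5.77), and was in 33 of 69 pool members and 25 of 25 in the other library.

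Plac8, Stmn1 and Hes1 were higher in pool members than in members of the other library. Plac8 had 438 and 7.05 UPM, a ratio of 62.2 (11.1 to 2463), though the B cell, myeloid and stromal cells of the pool had 858 UPM. Stmn1, a microtubule regulator of dividing cells, had 546 and 14.1 UPM, a ratio of 38.7 (10.6 to 321). Hes1, a target of Notch, had 162 and 7.05 UPM, a ratio of 23.0 (4.04 to 915), from 30 of 69 and 1 of 25 members. Against a floor of 3 UMIs the log2 ratios between the libraries were 4.37 for Plac8, 4.69 for Stmn1 and 2.94 for Hes1. When the rule ran on thinned cells, with 15 and 5 members, they were 1.88, 2.45 and 0.91, the last under the size rule. Without Batf3 in the sum, with 59 and 8 members, they were 2.88, 3.24 and 1.59. The floor in UPM is higher over so few cells, and its part in these lower values was not tested.

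Immediate early and heat shock genes were lower in pool members than in members of the other library. The 17-gene list summed to 7943 UPM in pool members and 19690 UPM in members of the other library. ILC1-like cells had 8566 UPM in the pool and 10640 UPM in the other library, and neighbour cells 9919 and 13960 UPM in the same order. T cells ran the other way, at 12685 UPM in the pool and 9880 UPM in the other library. Of 16 measured genes 0 were higher and 7 lower in pool members, Jun among them at 272 and 1382 UPM, 5.08-fold lower (4.14 to 6.23). Cycling genes also differed, summing to 1515 and 219 UPM in members of the pool and the other library. This drop was not particular to members: neighbour cells had 1634 and 281 UPM and ILC1-like cells 1342 and 468 UPM. T cells had 295 and 316 UPM. The part of stress transcripts, depth and sort gate in the differences between the libraries was not tested, and the library and the gate cannot be told apart.

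**Figure D5:**
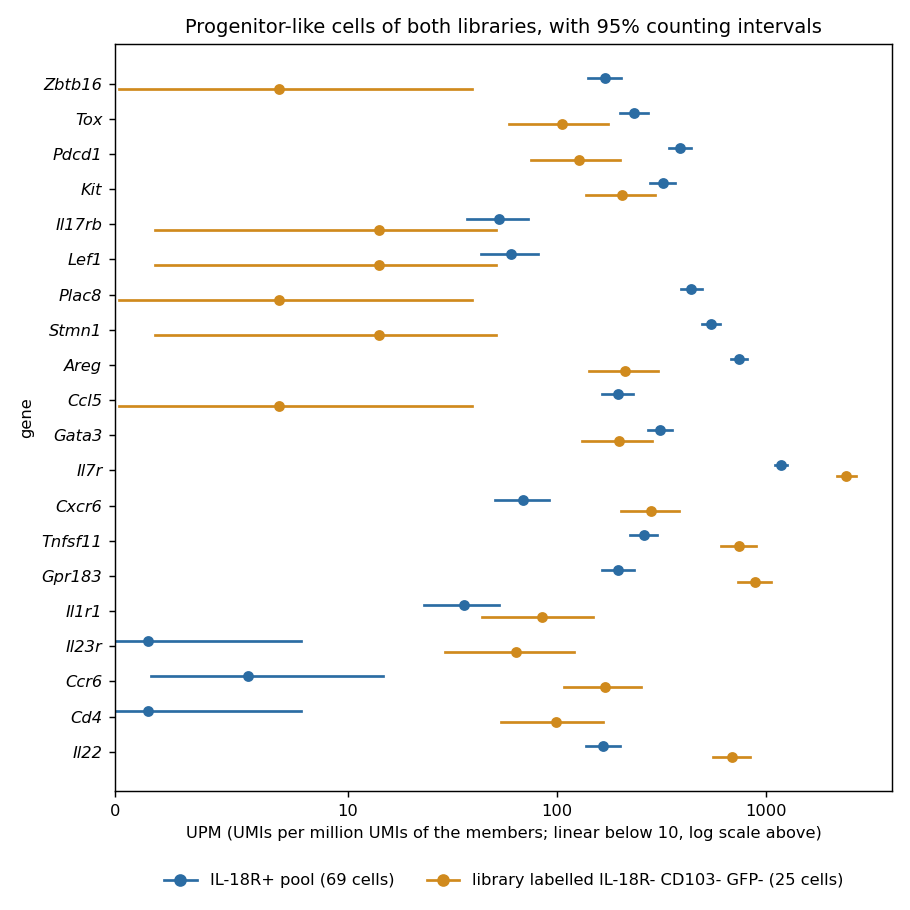
UPM (horizontal axis, linear below 10 and log above) of chosen genes (rows) in the 69 members of the IL-18R+ pool (blue) and the 25 of the other library (orange), with 95% counting intervals. Zbtb16, Plac8, Stmn1 and Ccl5 lie to the right in the pool, and Ccr6, Cd4 and Il23r in the other library; the Il22 point of the pool rests on 1 cell.

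Part of the distance from ILC1-like cells was shared by the members of both libraries. In both, 54 genes were called higher than in ILC1-like cells, 22.1% of the pool's calls and 14.8% of the other library's, while 10 of the pool's higher genes were called lower in the other library. For lower genes 69 were shared, 25.9% and 17.4%, with 7 called the opposite way. Over all measured genes, 6.72% were called higher in the pool and 10.2% in the other library, and 7.33% and 11% lower. ILC1-like cells were chosen by the same gene sum in both libraries, so the shared lower genes are in part fixed by that choice. Igfbp4, Hmgn3, Igfbp7, Tcrg-C1, Tnfsf11, Pdcd1, Furin, Atf3 and Ccr7 were among the shared higher genes. Among members of the other library Hmgn3 had 261 UPM, against 19.7 in their ILC1-like cells, a ratio of 13.2 (4.75 to 51.1), and Igfbp4 had 113 UPM and 0 UMIs, at least 7.63-fold higher. Tbx21 was lower in both, with 0 UMIs in members of the other library and 113 UPM in their ILC1-like cells, at least 5.36-fold lower.

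Of the 6 measured GFI1B partner genes, Kdm1a and Rcor1 were called higher in pool members than in ILC1-like cells and 4 were neither. The median log2 ratio was 0.72 against 0.04 over all genes, of which 6.72% were called higher. Kdm1a had 81.6 UPM in members and 31.7 in ILC1-like cells, a ratio of 2.57 (1.17 to 6.68) on 57 and 7 UMIs. Its call ended with a sum of 3 or more (log2 ratio 0.62), without Batf3 (0.64) and with the rule run on thinned cells (0.35). Rcor1 had 60.1 and 27.2 UPM, a ratio of 2.21 with an interval that includes no difference (0.935 to 6.36), and its log2 ratio was -0.82 when the rule ran on thinned cells. In the other library Kdm1a had 28.2 UPM in members and 69.02 in ILC1-like cells, 2.45-fold lower with an interval that includes no difference (0.769 to 10.2).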

How the data were processed

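Lung cells were profiled as 3 libraries with the 10x Chromium Next GEM Single Cell 3' kit, per the labels' protocols. The authors deposited whole UMI counts per gene and barcode for 32285 genes, made with Cell Ranger 6.0.1 on build mm10, per the submitters' processing notes; annotation, cell calling settings and lineage antibodies: not given in the sources used here. Raw reads were not used.

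A barcode was kept if it had 500 or more genes and no more than 10% of its UMIs from mitochondrial genes. Counts were summed over the cells of a class and divided by the class total, giving UMIs per 1000000 (UPM). A gene was measured at 50 UPM or more in the higher class and called at a ratio of at least 2, sums raised to a floor of 3 UMIs, with a UMI in at least 10% of the cells of the higher class. Intervals are exact Poisson, Clopper-Pearson or conditional binomial 95% limits, and intervals and floors cover counting error only. No test was run, since each group is 1 library. Shares were also read after thinning cells to 2000 UMIs. Where the rule itself ran on thinned cells, thinned counts chose the classes and gene sums used the full counts. Scrublet (scanpy 1.11.5) called 19 of 5164 cells (0.368%), too few to have worked, so doublets were not removed; 1 called cell was a member. No correction for free RNA was made.

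The 94 members, the markers and the 19 gene lists were chosen with earlier results of these data known. Named genes were the rule and comparator genes, the measured genes of 4 lists (ILC progenitor, lineage factors, cytokine receptors, effector molecules), up to 4 per other list, the called genes with the 12 largest ratios per direction in the pool at 100 UPM or more, without predicted, ribosomal and mitochondrial genes, and 8 per direction between libraries. Other named genes, and all in the neighbour comparison, were chosen after their values were seen. The size rule was tested on simulated data. TMM factors came from edgeR 4.0.16 in R 4.3.3, with scipy 1.17.1 for intervals. Alternatives were other cell filters, 4-gene thresholds, T cell exclusions, doublet removal, expression minimums, scaling and averaging over cells. 2 list genes are not reported here.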

Additional observations from a re-analysis of the deposited data

Results flagged for a closer look

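Kdm1a, the histone demethylase partner of GFI1B, moved in opposite directions in the 2 libraries. Its log2 ratio of progenitor-like over ILC1-like cells was 1.36 in the IL-18R+ pool and -1.29 in the other library (label IL-18R- CD103- GFP-). The difference between the libraries was not tested. The second value rests on 4 UMIs in 25 members and 14 UMIs in 38 ILC1-like cells, and its counting interval includes no difference.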

How the results depend on the processing

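No paired analysis was possible because each group is 1 library with no replicate numbers. Of the member shares and counts of called genes under the alternatives, 78 stayed close to their main value and 32 moved, and those 32 are given here. The member share of CD3-negative cells was 16.2% in the pool and 11.1% in the other library. It was 22.1% and 17.3% with a 4-gene sum of 1 or more, 3.19% and 1.65% on thinned cells, 5.33% in the other library with a sum of 3 or more and 3.56% there without Batf3. With Trbc1, Trbc2, Trac, Trdc and Cd3g all at 0 it was 2.21% in the pool (3 of 136 cells); that left 3 and 2 cells to compare in the pool, 4 and 3 in the other library and 3 and 3 against neighbour cells, so gene comparisons were not run (a minimum of 5 cells per class, set after seeing this).

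In the pool, genes higher and lower than in ILC1-like cells numbered 244 and 266. With the rule run on thinned cells (15 and 26 cells, summed at full counts) they were 513 and 517. They were 537 and 626 from 20 UPM, and 93 and 119 from 100 UPM. Below, thinned cells stand for this same setting. In the other library the 366 higher and 396 lower genes became 1121 and 107 on thinned cells (5 and 37 cells), 724 and 186 without Batf3 (8 and 43 cells), 153 and 175 from 100 UPM, and 218 and 188 where the counting interval had to leave out 1. Higher genes there were 586 with a sum of 3 or more and 695 from 20 UPM. Between the libraries' members, pool over the other, the 438 higher and 401 lower genes became 155 and 1123 on thinned cells (15 and 5 cells), 205 and 730 without Batf3 (59 and 8 cells), and 184 and 187 from 100 UPM. Lower genes were 641 with a sum of 3 or more and 905 from 20 UPM, and higher genes were 283 where the interval had to leave out 1. The low cell numbers in brackets limit those values, and a lower UPM minimum measures more genes; other causes were not tested. The alternatives without Batf3 and with the interval were chosen after seeing the data.

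Of the single-gene log2 ratios 2264 stayed within their counting error, 135 moved and 1 reversed, Rcor1 in the pool at -0.82 on thinned cells. A ratio does not depend on the UPM minimum, the minimum share of cells or the interval rule. The 160 unchanged ratios under each of those settings were therefore fixed in advance and do not show stability. TMM scaling adds the same shift to every ratio of a comparison, and its 160 ratios all stayed. Ratios of 2 or more in either direction between members and ILC1-like cells of the pool came under 2 or changed sign for 20 of the genes followed on thinned cells and for 9 with a sum of 3 or more.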
